A study of Mus musculus with 4 samples.

Results

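RNA sequencing of brown adipose tissue (BAT) was used to ask how the genes of branched-chain amino acid (BCAA) breakdown differed between Sox4f/f mice, whose 2 Sox4 alleles carry loxP sites, and Sox4-MKO littermates, which carry the same floxed alleles together with a Cre recombinase driven by Myf5. All 4 mice were males aged 15 weeks, with 2 mice and 2 libraries per genotype. The labels call the control genotype WT. Myf5-Cre is active in the lineage that gives rise to both brown adipocytes and skeletal muscle, and the libraries were made from whole tissue, so cells outside that lineage were also sampled. The 10 genes, Bcat1, Bcat2, Bckdha, Bckdhb, Dbt, Bckdk, Ppm1k, Ivd, Mccc1 and Mccc2, were chosen by name and matched 10 of the 55387 rows of the gene tables, with 1 row each.

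Leucine, isoleucine and valine are broken down mainly in mitochondria. Branched-chain aminotransferases (Bcat1 in the cytosol, Bcat2 in mitochondria) first move the amino group to 2-oxoglutarate. The branched-chain ketoacid dehydrogenase complex then carries out the committed step with its E1 alpha (Bckdha), E1 beta (Bckdhb), E2 (Dbt) and E3 (Dld) subunits, and it is switched off by the kinase Bckdk and switched on again by the phosphatase Ppm1k, also called PP2Cm. For leucine, the next steps are isovaleryl-CoA dehydrogenase (Ivd) and methylcrotonyl-CoA carboxylase, which has a biotin-carrying alpha subunit (Mccc1) and a beta subunit (Mccc2). Active brown fat is known to take up and oxidise BCAA as a fuel for heat production.

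Values are FPKM, a fragment count divided by transcript length and library depth, so levels can be compared between genes per length. limma was fitted to log2(FPKM + 1) over 12877 genes whose mean FPKM passed 1 in one or both genotypes, and all 10 genes entered it. A gene is named as called below when its unadjusted p was under 0.05, the limit that the study's methods give. After Benjamini-Hochberg adjustment 0 of the 12877 genes were under 0.05 by limma, against 2090 at an unadjusted p under 0.05, and the smallest adjusted p was 0.191. Of the calls over all genes 51.0% were lower in Sox4-MKO, or 36.1% after scaling to a common sum without mitochondrially encoded genes and Ucp1, a scaling that left both called genes of the 10 called. Each genotype rests on 2 mice. Over all tested genes 8.28% were called lower, 7.95% were called higher and 56.0% had a log2 fold change below 0. These shares, from the fit to all libraries, are the background of the counts in the gene lists below. Without either one of the Sox4f/f mice fewer of all tested genes were called as well, so calls lost there are not particular to the lists.

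Some facts of the libraries touch these results. Depth was estimated at 12200000 to 16200000 fragments per library from the lowest FPKM values. Sox4 had 1.98 and 1.06 FPKM in Sox4f/f and 0.981 and 3.06 FPKM in those labelled Sox4-MKO, so its mRNA did not separate the labels and all directions below follow the labels. General adipocyte markers had summed levels of 11795 and 11900.5 FPKM in Sox4f/f and of 10470.4 and 13356 FPKM in Sox4-MKO. Fabp4 was the largest part of this sum, with 5801 and 6334 against 5416 and 7518 FPKM. Of these 7 markers, 2 (Lipe and Pnpla2) were called lower and 0 higher, beside 8.28% and 7.95% of all tested genes. The brown adipocyte list, with Ucp1 among its 7 genes, had 7485 and 7366 against 3649 and 4399 FPKM. Cox8b was the largest part of this sum, with 3317 and 3181 against 1670 and 2027 FPKM. In this list 5 genes were called lower and 0 higher, beside 8.28% and 7.95% of all tested genes. Dio2 and Elovl3 were not called, and Elovl3 overlapped between the genotypes. Of the 12 skeletal muscle markers, 12 had a higher mean in Sox4-MKO and 10 were called higher. Their sum was 233 and 877 FPKM in Sox4f/f, 16615 FPKM in Sox4-MKO mouse 1 and 2845 FPKM in Sox4-MKO mouse 2, with no marker at 0. The 8 progenitor and fibroblast markers were all called higher (summed 394 and 423 against 883 and 805 FPKM), as were 8 of 10 macrophage markers (225 and 328 against 472 and 456 FPKM). The 6 endothelial markers overlapped in their sums, and the B cell and liver lists summed to between 0.143 and 2.32 FPKM in every library. The part of these cell types in the results below was not tested, and calls lost without Sox4-MKO mouse 1, the library with the most muscle RNA, are named beside the genes. In bulk tissue, fewer cells of a type and less RNA per cell cannot be told apart.

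**Figure D1:**
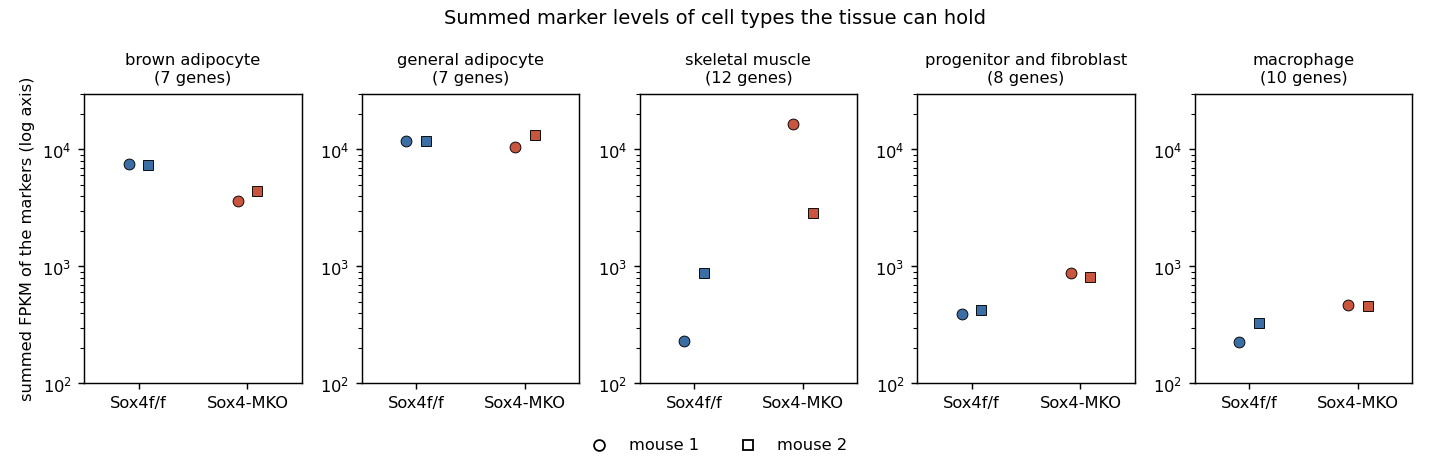
Summed FPKM of 5 marker lists on a log axis, 1 point per library, circles for mouse 1 and squares for mouse 2 of each genotype. The brown adipocyte sum was lower in both Sox4-MKO libraries, the general adipocyte sum overlapped, and the muscle sum reached 16615 FPKM in Sox4-MKO mouse 1.

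Promoter sequences are shown for genes on which the subunit comparisons below turn. They are the 250 bases before the RefSeq start site on GRCm38.p6, given 5′ to 3′ on the gene's own strand. Shown are Bckdhb, which was called lower, and the 2 subunits of methylcrotonyl-CoA carboxylase. Neither subunit was called, and their log2 fold changes had opposite signs. Bcat2 is shown because the EBF letters occur in it. Capitals mark matches to CCAAT or ATTGG (the CCAAT box on either strand) and, in Bcat2, to CCCNNGGG, the core of the motif bound by EBF factors. Bckdhb lies at chr9:83924887-83925136 (plus strand), Mccc1 at chr3:36000679-36000928 (minus strand), Mccc2 at chr13:100015640-100015889 (minus strand) and Bcat2 at chr7:45569903-45570152 (plus strand).
Bckdhb: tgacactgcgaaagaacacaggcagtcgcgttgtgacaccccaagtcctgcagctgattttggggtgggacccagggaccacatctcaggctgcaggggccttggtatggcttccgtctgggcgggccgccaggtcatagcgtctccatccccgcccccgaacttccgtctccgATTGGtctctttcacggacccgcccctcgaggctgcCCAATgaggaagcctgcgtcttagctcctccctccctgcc
Mccc1: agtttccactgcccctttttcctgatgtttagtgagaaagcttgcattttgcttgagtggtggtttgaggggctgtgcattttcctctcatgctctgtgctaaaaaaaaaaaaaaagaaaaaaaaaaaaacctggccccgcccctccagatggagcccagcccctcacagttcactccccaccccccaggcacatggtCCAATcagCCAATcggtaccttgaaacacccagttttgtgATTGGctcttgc
Mccc2: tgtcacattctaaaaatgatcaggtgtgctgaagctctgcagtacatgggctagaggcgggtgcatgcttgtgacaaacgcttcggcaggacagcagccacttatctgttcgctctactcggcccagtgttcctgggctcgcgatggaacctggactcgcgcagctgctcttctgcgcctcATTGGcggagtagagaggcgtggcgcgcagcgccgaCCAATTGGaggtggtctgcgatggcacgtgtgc
Bcat2: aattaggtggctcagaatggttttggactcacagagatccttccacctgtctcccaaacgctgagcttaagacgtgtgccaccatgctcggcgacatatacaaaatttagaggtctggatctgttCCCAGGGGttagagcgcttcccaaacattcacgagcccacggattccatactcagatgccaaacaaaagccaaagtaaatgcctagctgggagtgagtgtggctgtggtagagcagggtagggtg

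RefSeq entries matched 9 of the 10 genes. They gave 12 promoters, since Bcat1, Bcat2 and Bckdhb have a pair each. CCCNNGGG, searched on both strands, was in 1 of the 12 (Bcat2) and in 11.8% of the 32851 promoters of the same length. AACAAAG, the letters bound by SOX factors, was in 0 of 12 and in 5.03% of all promoters, and AAGGTCA, letters bound by nuclear receptors, was in 0 of 12 and in 4.08%. CCAAT, which was added after these sequences had been read, was in 7 of the 12 and in 33.8% of all promoters. The Bckdhb window shown holds 2 matches and Mccc1 and Mccc2 hold 3 each, of which 1 pair in Mccc2 overlaps. The other Bckdhb window and that of Bckdha hold 0, and that of Ivd holds 4. By the GENCODE M21 positions, the Bckdha and Ivd windows run into these genes and the other Bckdhb window lies inside its gene. The matches in these windows are thus not counted over upstream bases alone. The Mccc1 window has 2 CpG dinucleotides and a GC content of 48.4%, and the Mccc2 window has 18 and 58.8%, although both genes encode subunits of one enzyme. These matches are descriptions of the letters and not binding sites, and their absence does not show that a factor does not bind. The SOX4 regions that the study describes at Ebf2, Ucp1 and Prdm16 lie farther upstream than these windows reach. The Ebf2 site that it mutated reads AACAAGT, which was not searched.

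In Sox4f/f BAT, the E1 alpha subunit Bckdha was the most abundant of the 10 mRNAs at 235 ± 0.489 FPKM (SD, n = 2). It was followed by Bckdhb (115 ± 14.2 FPKM) and Ivd (113 ± 6.03 FPKM), whose values overlapped with each other. Bcat2 (85.0 ± 11.2 FPKM), Bckdk (68.0 ± 1.88 FPKM), Dbt (58.5 ± 4.22 FPKM), Mccc2 (51.0 ± 0.454 FPKM) and Mccc1 (49.2 ± 0.855 FPKM) formed a closely spaced middle group, in which neighbours differed by 1.04 to 1.25 times without overlap. Ppm1k, the phosphatase, was at 10.5 ± 1.27 FPKM, and Bcat1 was last at 0.527 ± 0.324 FPKM. At the level of mRNA, the mitochondrial aminotransferase was thus the main form in this tissue, with Bcat1 at 0.00813 and 0.00386 of the Bcat2 level in the 2 Sox4f/f libraries.

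Of the 10 genes, 8 had a lower mean log2 value in Sox4-MKO, where 56.0% of all tested genes did. Both E1 subunits, Bckdha and Bckdhb, were called lower, or 2 of 10 genes where 8.28% of all tested genes were, and 0 were called higher where 7.95% were. The 2 genotypes did not overlap at 6 of 10 genes with Sox4-MKO lower, against 29.6% of the tested genes, and at 2 of 10 with Sox4-MKO higher, against 21.7%. The median log2 fold change of the 10 was -0.29, and that of all tested genes was -0.05.

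**Figure D2:**
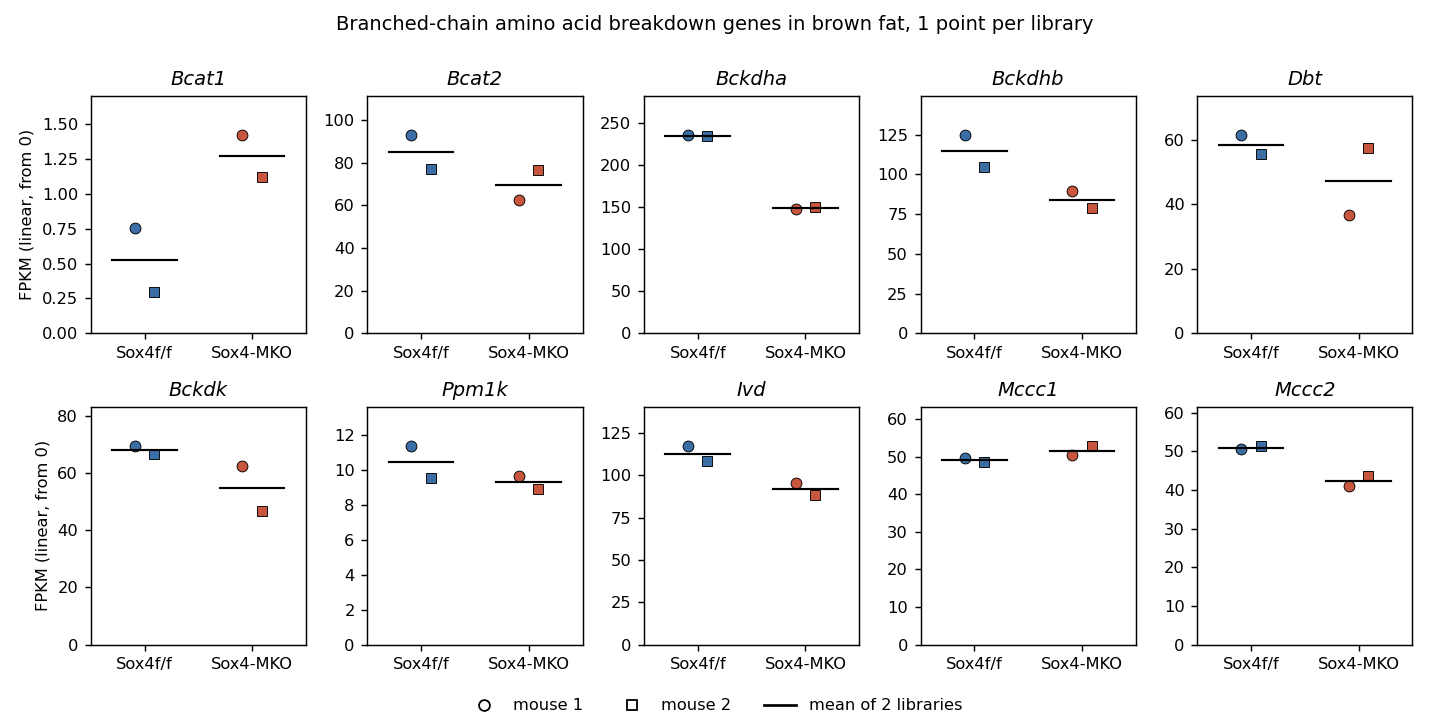
FPKM of the 10 genes on linear axes that start at 0, 1 point per library, with circles for mouse 1, squares for mouse 2 and a bar at the mean of each genotype. The 2 values of Bckdha lie almost on top of each other within each genotype, at 235.7 and 235.0 against 147 and 150.2 FPKM, and those of Dbt lie apart in Sox4-MKO, at 36.8 and 57.6 FPKM.

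The 2 genes of the first step had log2 fold changes of opposite sign, and neither was called. Bcat2, on chromosome 7 of GRCm38 from 45570153 to 45589711 (GENCODE M21), had 92.9 and 77.1 FPKM in Sox4f/f and 62.5 and 76.6 FPKM in Sox4-MKO. Both Sox4-MKO values lay below both Sox4f/f values, but that of mouse 2 did so by under 1 FPKM. The log2 fold change was -0.29 with a standard error of 0.17 (unadjusted p = 0.151, adjusted p = 0.449 by limma). Without Sox4-MKO mouse 1 it was -0.14.

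Bcat1, on chromosome 6 from 144993835 to 145076184, was low throughout, with 0.756 and 0.298 FPKM in Sox4f/f and 1.42 and 1.12 FPKM in Sox4-MKO. These values stand for an estimated 80, 28, 140 and 143 fragments if they are spread over the longest coding transcript. The Sox4-MKO values lay above the others, and the mean was 2.42 times that of Sox4f/f, or 4.28 times without Sox4f/f mouse 1 and 1.68 times without Sox4f/f mouse 2. The log2 fold change of 0.59 (standard error 0.28) was not called (unadjusted p = 0.096, adjusted p = 0.378 by limma), and since 1 is added to every value this scale understates the change of so low a gene. With a pseudocount of 0.01 the log2 fold change was 1.39. Without Sox4f/f mouse 1 it was 0.81 on the FPKM + 1 scale and Bcat1 was called higher (unadjusted p = 0.0454 by limma).

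At the committed step, Bckdha had the clearest difference of the 10 genes. It lies on chromosome 7 from 25629946 to 25658981. It had 235.7 and 235.0 FPKM in Sox4f/f and 147 and 150.2 FPKM in Sox4-MKO. The spread within each genotype was under 3 FPKM, and the Sox4-MKO mean was 63.2% of the Sox4f/f mean. The log2 fold change was -0.66 with a standard error of 0.10 (unadjusted p = 0.00198, adjusted p = 0.196 by limma). It was called in all 13 alternatives tried, where it ranged from -0.68 to -0.59, and it was -0.64 without Sox4-MKO mouse 1.

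Bckdhb, its partner in the E1 heterotetramer, lies on chromosome 9 from 83925145 to 84124240. It had 124.7 and 104.6 FPKM in Sox4f/f and 89.4 and 78.6 FPKM in Sox4-MKO, without overlap, so that the Sox4-MKO mean was 73.2% of the other. Its log2 fold change of -0.44 (standard error 0.15, unadjusted p = 0.0326, adjusted p = 0.268 by limma) was less steady than that of Bckdha. It was -0.53 without Sox4-MKO mouse 1 and was not called without Sox4f/f mouse 1 (-0.32) or without Sox4-MKO mouse 2 (-0.35).

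Dbt, the E2 core of the complex, did not separate the genotypes. It lies on chromosome 3 from 116513070 to 116549981 and had 61.4 and 55.5 FPKM in Sox4f/f and 36.8 and 57.6 FPKM in Sox4-MKO. Sox4-MKO mouse 2 lay between the 2 Sox4f/f mice, and only mouse 1 was low. The log2 fold change was -0.33 with a standard error of 0.24 (unadjusted p = 0.225, adjusted p = 0.518 by limma), -0.02 without Sox4-MKO mouse 1 and -0.65 without mouse 2. Dld, the E3 subunit that the complex shares with pyruvate and 2-oxoglutarate dehydrogenase, had 308.7 and 309.0 FPKM against 276 and 258 FPKM. Its log2 fold change was -0.21 with a standard error of 0.11, and it was not called (unadjusted p = 0.117, adjusted p = 0.407 by limma).

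The kinase and the phosphatase act on the E1 alpha subunit in opposite directions. Bckdk, on chromosome 7 from 127904082 to 127910221, had 69.3 and 66.7 FPKM in Sox4f/f and 62.5 and 46.8 FPKM in Sox4-MKO. The Sox4-MKO values were both lower, mouse 2 by more, and the log2 fold change of -0.32 (standard error 0.17) was not called (unadjusted p = 0.125, adjusted p = 0.419 by limma). It was -0.53 and called without Sox4-MKO mouse 1 (unadjusted p = 0.0164 by limma), and -0.12 without mouse 2. Ppm1k, on chromosome 6 from 57506502 to 57535468, had 11.4 and 9.57 FPKM against 9.67 and 8.94 FPKM, with overlap. Its log2 fold change was -0.15 with a standard error of 0.16 (unadjusted p = 0.383, adjusted p = 0.655 by limma).

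In the leucine branch, Ivd and Mccc2 were lower by a similar amount and Mccc1 was not. Ivd, on chromosome 2 from 118861954 to 118882909, had 117.0 and 108 FPKM in Sox4f/f and 95.5 and 88.4 FPKM in Sox4-MKO, without overlap. Its log2 fold change of -0.29 (standard error 0.12) just missed the call (unadjusted p = 0.0581, adjusted p = 0.322 by limma), and passed it after scaling to a common median (-0.31). Mccc2, on chromosome 13 from 99948530 to 100015639, had 50.6 and 51.3 FPKM against 41.1 and 43.6 FPKM. These groups did not overlap either, and the log2 fold change was -0.26 (standard error 0.11, unadjusted p = 0.0717, adjusted p = 0.343).

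Mccc1, on chromosome 3 from 35959312 to 36000678, was the only mitochondrial enzyme of the 10 without a lower mean in Sox4-MKO. It had 49.8 and 48.6 FPKM in Sox4f/f and 50.4 and 52.8 FPKM in Sox4-MKO, so that both Sox4-MKO values lay slightly above the others. The log2 fold change was 0.07 with a standard error of 0.11 (unadjusted p = 0.568, adjusted p = 0.781 by limma). Mccc1 stayed above 0 in all 13 alternatives, between 0.04 and 0.14, and was called in 0 of them.

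Genes that overlap the 10 on either strand were low. All 15 of them had a row, the highest value was 2.45 FPKM for Gm4596, a processed pseudogene within Dbt, and the labels describe a stranded library whereas the methods describe a TruSeq kit, so how strand was used in counting is not given in the sources used here.

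Ratios within a library compare isoforms, opposing enzymes and subunits without the scaling between libraries. At this sample size the smallest p that an exact permutation test (two-sided) can give is 0.333, so none of the 6 ratios could pass 0.05. The ratio of Bcat1 to Bcat2 was 0.00813 and 0.00386 in Sox4f/f and 0.0227 and 0.0147 in Sox4-MKO, a difference of 1.70 on the log2 scale (exact permutation p = 0.333, adjusted 0.667). Bcat1 remained a small fraction of Bcat2 in every library.
The ratio of Mccc2 to Mccc1 was 1.02 and 1.06 in Sox4f/f and 0.814 and 0.826 in Sox4-MKO, a log2 difference of -0.34 (exact permutation p = 0.333, adjusted 0.667). The beta subunit mRNA was thus slightly above the alpha subunit mRNA in both controls and below it in both other libraries. The ratio of Ivd to Mccc1 went the same way, from 2.35 and 2.23 to 1.89 and 1.67, a log2 difference of -0.36 (exact permutation p = 0.333, adjusted 0.667).
The other 3 ratios overlapped between the genotypes, each with an exact permutation p of 0.667 (adjusted 0.667). Ppm1k stood at 0.164 and 0.144 of Bckdk in Sox4f/f and at 0.155 and 0.191 in Sox4-MKO, and the log2 difference of 0.16 was smaller than the SD of 0.21 between the 2 Sox4-MKO libraries. Bckdhb was at 0.529 and 0.445 of Bckdha against 0.607 and 0.523. Dbt was at 0.261 and 0.236 of Bckdha in Sox4f/f and at 0.250 and 0.383 in Sox4-MKO, where only mouse 2 stood apart.

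**Figure D3:**
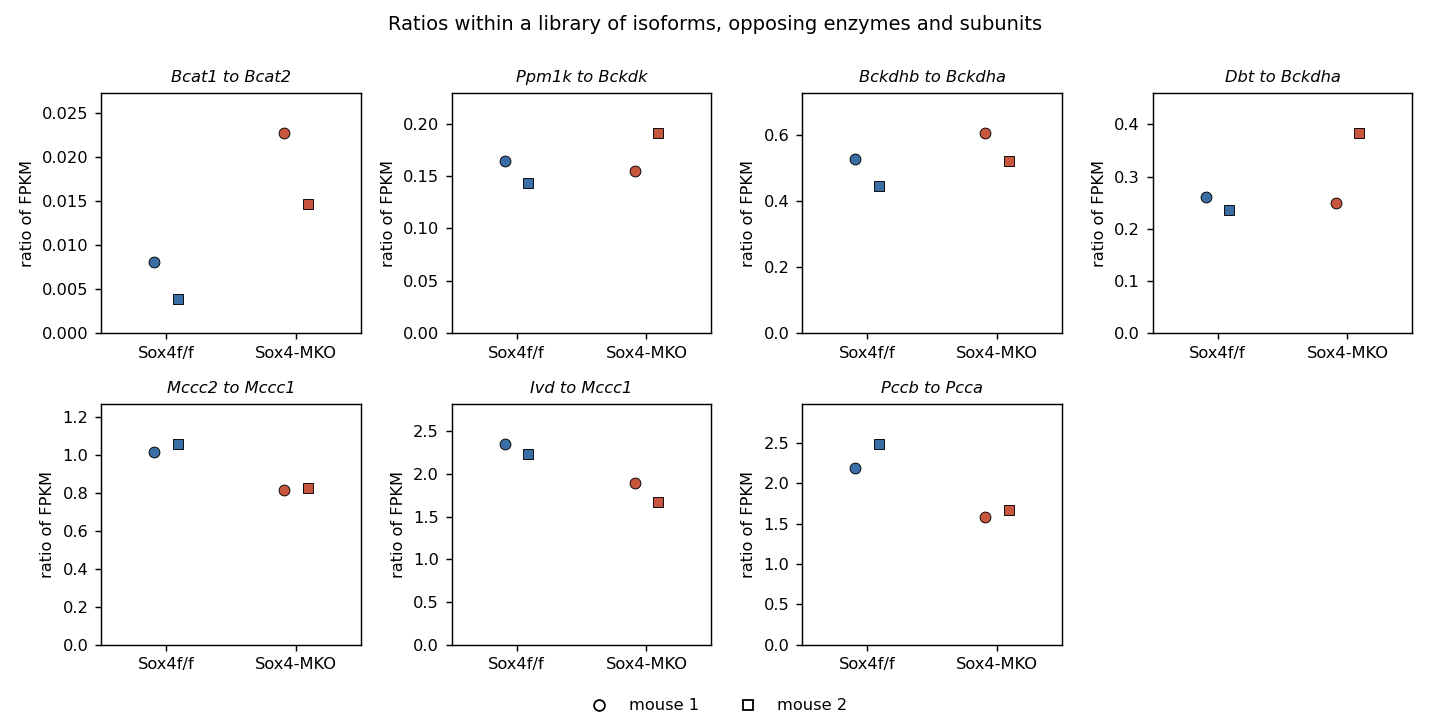
Ratios of FPKM within each library on linear axes that start at 0, with circles for mouse 1 and squares for mouse 2 of each genotype. The genotypes do not overlap for Bcat1 to Bcat2, Mccc2 to Mccc1, Ivd to Mccc1 and Pccb to Pcca, and they overlap for the other 3 ratios.

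A list of 39 further genes covered the carriers, the other branches, ketone body use, the partners of the pathway and 4 regulators. The regulators are not enzymes of the pathway and made up 3 of the lower calls. Of the 39 genes, 38 entered the test. In Sox4-MKO 14 were called lower and 5 higher, where 8.28% and 7.95% of all tested genes were. Of these 19 calls, 5 held whichever library was left out, those of Pccb, Etfb, Ppara, Gpt2 and Bdh1. The median log2 fold change of the 38 genes was -0.27. Without Sox4-MKO mouse 1, 10 were called lower and 3 higher, without Sox4f/f mouse 1 these counts were 4 and 4, and without Sox4f/f mouse 2 they were 5 and 2.

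The isoleucine and valine branches had 7 genes, all with a lower mean and 3 called lower, beside 56.0% and 8.28% of all tested genes. Without either one of the Sox4f/f mice 0 of the 7 were called. Acadsb, a dehydrogenase of the isoleucine branch, was at -0.06 and turned to 0.01 with the common sum. The short-chain hydratase Echs1 had 481 and 459 FPKM against 345 and 305 FPKM, or -0.53 on the log2 scale with a standard error of 0.12 (limma, adjusted p = 0.214). Hibadh, which oxidises 3-hydroxyisobutyrate, changed by -0.49 and the isobutyryl-CoA dehydrogenase Acad8 by -0.40, a call also lost without Sox4-MKO mouse 2. Electrons from Ivd, Acad8 and other acyl-CoA dehydrogenases, those of beta-oxidation included, pass to electron transfer flavoprotein and its oxidoreductase. This relay is thus not particular to BCAA breakdown. All 3 genes of that relay were called lower, Etfb by -0.79, Etfa by -0.60 and Etfdh by -0.51. Etfb had 1509 and 1451 FPKM against 848 and 868 FPKM, and Etfa had 883 and 865 FPKM against 583 and 573 FPKM. Without Sox4f/f mouse 1 Etfb was the 1 gene of the 3 still called, and without Sox4f/f mouse 2 Etfdh was not called. Etfdh was at -0.31 without Sox4-MKO mouse 1, and its call was lost with quantile normalization and with the common sum.

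Of the 6 genes at the end of the leucine branch and in ketone body use, 2 were called lower and 1 higher, beside 8.28% and 7.95% of all tested genes. Without either one of the Sox4f/f mice 0 were called lower. Auh, the hydratase that follows methylcrotonyl-CoA carboxylase, had 91.5 and 89.4 FPKM against 68.2 and 54.4 FPKM, or -0.56 on the log2 scale with a standard error of 0.15 (limma, adjusted p = 0.229). Acat1, the mitochondrial acetoacetyl-CoA thiolase, had a log2 fold change of -0.32 and was called in 7 of 13 alternatives, and not without Sox4-MKO mouse 1. Bdh1, the ketone body enzyme 3-hydroxybutyrate dehydrogenase, was listed at 0 in Sox4f/f mouse 1 and at 0.486 FPKM in mouse 2, against 3.52 and 2.01 FPKM in Sox4-MKO.

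Propionyl-CoA, the end product of valine and part of isoleucine, is taken on by propionyl-CoA carboxylase and methylmalonyl-CoA mutase. In this group 1 of 6 genes was called lower and 0 higher, beside 8.28% and 7.95% of all tested genes. Pccb, the beta subunit of the carboxylase, had 230.0 and 247 FPKM in Sox4f/f and 159 and 162 FPKM in Sox4-MKO, or -0.57 on the log2 scale with a standard error of 0.11 (limma, adjusted p = 0.201). Mcee and Mmaa had log2 fold changes of -0.22 and -0.13 and were not called. Pcca, the biotin-carrying alpha subunit, had 104.6 and 99.5 FPKM against 100.5 and 96.9 FPKM, or -0.05 on the log2 scale with a standard error of 0.11, which turned to 0.02 with the common sum. Pcca and the ratio of Pccb to Pcca were chosen after their values were seen, and the ratio was 2.20 and 2.49 in Sox4f/f and 1.59 and 1.68 in Sox4-MKO. For both biotin carboxylases of the pathway, the beta subunit was thus at a lower ratio to the alpha subunit in both Sox4-MKO libraries, which is described here without a test.

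Among the carriers, Slc25a44, which brings BCAA into mitochondria, had 42.1 and 39.2 FPKM against 31.5 and 35.7 FPKM, without overlap. Its log2 fold change of -0.27 (standard error 0.13) was not called (unadjusted p = 0.0959, adjusted p = 0.378 by limma). Of the plasma membrane carriers, Slc43a2 was called lower (-0.53) and Slc43a1 higher (0.87). Each of these calls held in 1 of the 4 fits that leave out a library, and neither held without Sox4-MKO mouse 1. Without Sox4f/f mouse 2 Slc43a1 was at 0.47, and Slc43a2 also lost its call with quantile normalization and with the common sum. Slc3a2, the heavy chain that pairs with several amino acid carriers, had a log2 fold change of -0.45 and was not called. Its values overlapped, with 41.0 and 34.3 FPKM in Sox4f/f and 21.3 and 34.4 FPKM in Sox4-MKO. It was called with no FPKM filter, and was at -0.12 without Sox4-MKO mouse 1 and at -0.78 without mouse 2. Slc7a5, the light chain of the main BCAA carrier, stayed under the FPKM filter with 0.320 to 0.732 FPKM.

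Of the 6 partners of transamination, 3 were called higher and 1 lower, beside 7.95% and 8.28% of all tested genes. Without either one of the Sox4f/f mice, 1 was called higher and 0 lower. The mitochondrial alanine aminotransferase Gpt2 had 8.13 and 7.25 FPKM in Sox4f/f and 22.6 and 20.3 FPKM in Sox4-MKO, or 1.37 on the log2 scale with a standard error of 0.14 (limma, adjusted p = 0.191). It was called whichever library was left out, with 1.30 without Sox4-MKO mouse 1. The aspartate aminotransferases Got1 (cytosolic) and Got2 (mitochondrial) were highest in Sox4-MKO mouse 1, the library with the highest muscle sum. Got1 had 11.3 and 11.9 FPKM against 58.4 FPKM in Sox4-MKO mouse 1 and 23.6 FPKM in mouse 2, and Got2 had 22.3 and 29.2 FPKM against 71.4 and 38.2 FPKM. Without Sox4-MKO mouse 1, Got1 was at 0.97 and called and Got2 at 0.56 and not called, and neither was called without either one of the Sox4f/f mice. Glud1, which feeds glutamate nitrogen into ammonia, had a log2 fold change of -0.31 and was called lower in 6 of 13 alternatives, and not without Sox4-MKO mouse 1.

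Among regulators known for these genes, the receptors Ppara (-0.97) and Esrra (-0.52) and the coactivator Ppargc1a (-1.21) were called lower. Ppara was called whichever library was left out, whereas Esrra lost its call without either one of the Sox4f/f mice and Ppargc1a without either one of the Sox4-MKO mice. Ppargc1a was at -0.67 without Sox4f/f mouse 1. Klf15, a transcription factor known to drive BCAA breakdown genes, was not called, with 31.1 and 13.6 FPKM in Sox4f/f and 26.7 and 25.6 FPKM in Sox4-MKO, but was called higher (0.89) without Sox4f/f mouse 1.

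**Figure D4:**
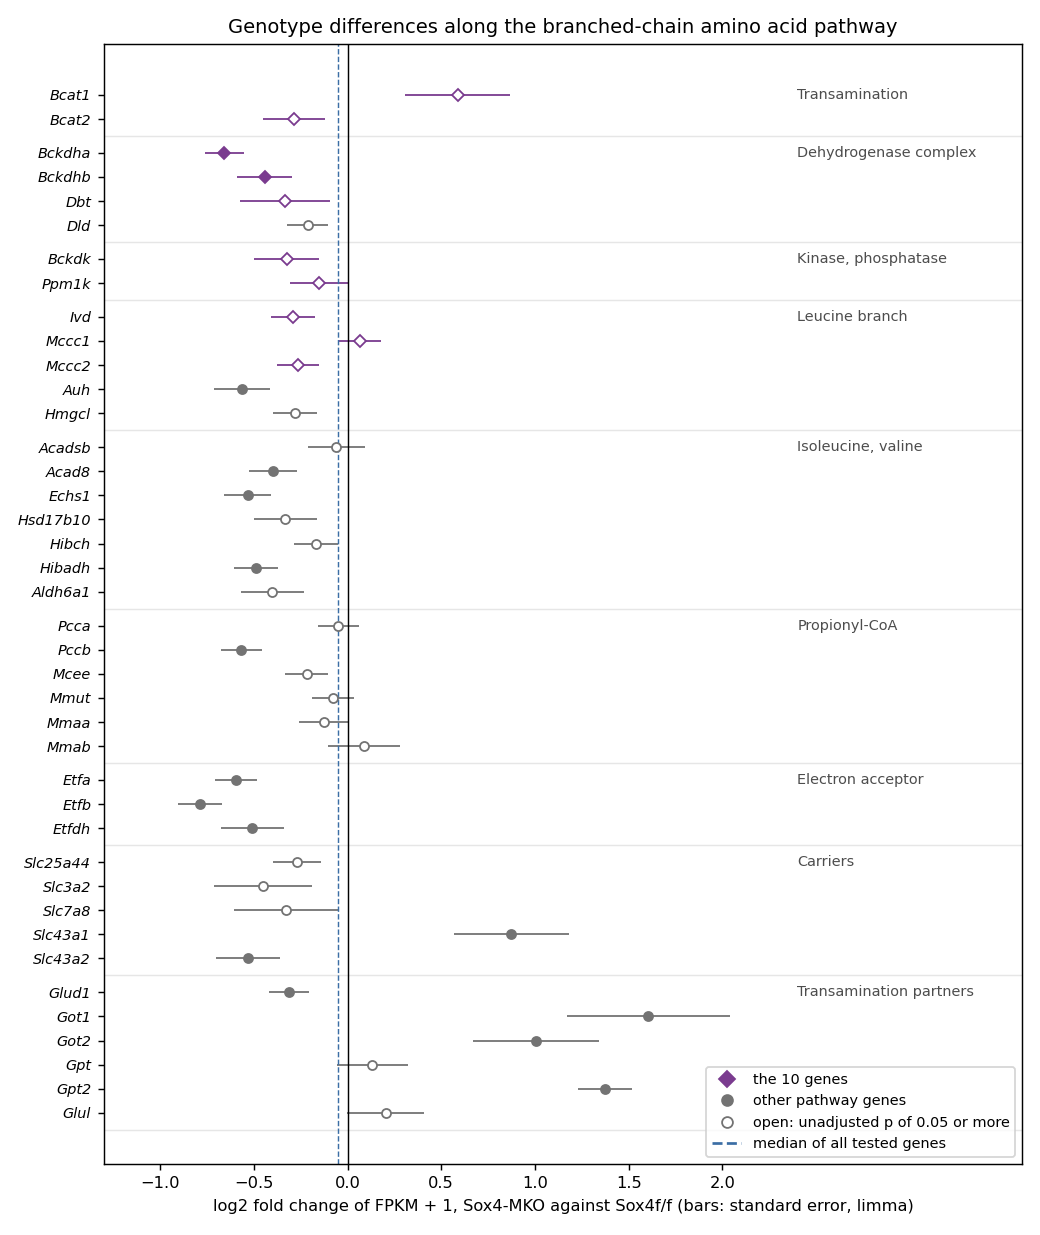
log2 fold change of FPKM + 1 in Sox4-MKO against Sox4f/f for the 10 genes (diamonds) and other pathway genes of the main roles (circles), with standard errors from limma, filled where the unadjusted p was under 0.05. The dashed line is the median of all tested genes at -0.05. Most points lie left of 0, with Bckdha at -0.66, and the aminotransferases Gpt2, Got1 and Got2 lie far to the right.

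Neighbouring mitochondrial pathways had medians further below 0. All 16 tricarboxylic acid cycle genes had a lower mean and 13 were called lower, beside 56.0% and 8.28% of all tested genes, and their median log2 fold change was -0.52. All 14 beta-oxidation genes had a lower mean and 10 were called lower, beside the same 56.0% and 8.28%, and their median was -0.60. Without Sox4f/f mouse 1 the called genes fell to 3 of the cycle, and without Sox4f/f mouse 2 to 2 of the cycle and 6 of beta-oxidation. Of the 10 BCAA genes, Bckdha (-0.66) alone lay beyond these medians. Whether the lists differ from each other was not tested. The tested genes whose centred log2 values over the 4 libraries were nearest to those of Bckdha were Clpb, a mitochondrial disaggregase, with a root mean square difference of 0.0109, then Apoe (0.0165) and Lmf1 (0.0235), a likeness that rests on 4 libraries and says nothing of function.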

How the data were processed

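Brown adipose tissue of 4 mice (2 Sox4f/f and 2 Sox4-MKO, by the sample titles) was sequenced, with 1 library per mouse. The authors deposited 1 FPKM value per gene and library, and the values carry no counts. The submitters' processing notes name Cufflinks 2.1.1, Cuffdiff and mm10, and the aligner and annotation are not given in the sources used here. A gene name table held 53288 of the 55287 symbols. Gene positions were looked up by symbol in GENCODE M21 (GRCm38), and promoters in RefSeq (GRCm38.p6).

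The labels describe a column kit and a stranded library, the methods TRIzol and TruSeq. No test on counts was made. The FPKM deposited were put on a log2 scale with a pseudocount of 1. The model had a genotype term alone, with a trended prior and two-sided p-values (limma 3.58.1, R 4.3.3), for genes whose mean FPKM passed 1 in one or both genotypes. The script was tested on simulated data before use. Depth was estimated from the FPKM that 1 fragment is worth, read from single-transcript genes of 1500 nt or more, and is approximate. FPKM between libraries depend on the abundant mitochondrially encoded transcripts, which the alternatives of scaling address.

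The 10 genes and all lists were chosen with earlier results of these data known. Named genes are the 10, the called genes of the pathway list, then those with the largest change until 3 were named per role, and the 3 genes nearest to the member with the largest change without overlap. Dld, Acadsb, Pcca, Slc25a44, Slc7a5 and Klf15 fall outside this rule and were named after their values were seen, and the CCAAT motif was chosen after the sequences were read. Alternatives were a replicate block, each library left out, 3 other scalings, FPKM limits of 0.1 and 5 and none, pseudocounts of 0.1 and 0.01, and, for ratios, FPKM + 1. Ratios were compared with an exact permutation test in scipy 1.17.1. Figures were drawn with matplotlib 3.10.9. Values of 1 gene of the pathway list are not reported here. The other experiments of the study were not analysed here.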

Additional observations from a re-analysis of the deposited data

How the results depend on the processing

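All 10 genes kept their direction in every alternative that could be fitted (Bcat1 did not pass an FPKM limit of 5). With each library left out in turn, 1 to 3 of the 10 genes were called lower and 0 to 1 higher, 4 to 15 and 2 to 4 of the other pathway genes, 2 to 15 of the tricarboxylic acid cycle genes and 6 to 9 of the beta-oxidation genes. The low counts came without Sox4f/f mouse 1 (1 of the 10, 4 pathway, 3 cycle genes) or mouse 2 (5 pathway, 2 cycle and 6 beta-oxidation genes). Fewer of all tested genes were called in these fits too, so the drop was not particular to these lists, and its cause was not tested. Fits that leave 1 mouse in a genotype assume that it varies like the others. With no filter, 1 of the 10 (Bcat1) was called higher. With no filter 1709 genes had an adjusted p under 0.05 by limma, but most genes are then at 0 in every library and the spread is poorly estimated. Without Sox4f/f mouse 1 or mouse 2 this count was 1 and 4, and it was 0 in the other alternatives. Mitochondrially encoded genes held 21.6% and 17.7% of the summed FPKM in Sox4f/f and 9.29% and 13.6% in Sox4-MKO. Rescaling to a common sum without these genes and Ucp1 moved the share of lower calls over all genes from 51.0% to 36.1%. It left 2 of the 10 called lower and moved the median log2 fold change of the 10 from -0.29 to -0.22. With 1 library left out, the median of the 10 ranged from -0.35 to -0.21. The median of all genes stayed between -0.08 and 0.01 under the 3 scalings. Other genes outside the 10, none of them called with all libraries, changed sign. With 1 library left out, the log2 fold change ranged from -0.199 to 0.0807 for Acadsb, -0.123 to 0.301 for Mmab, -0.0997 to 0.365 for Gpt, -0.0561 to 0.462 for Glul, -0.240 to 0.892 for Klf15 and -0.323 to 0.714 for Sox4. With the common sum, Acadsb was at 0.0125 and Pcca at 0.0231.

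The mouse numbers were not taken as pairs, since same-numbered libraries did not deviate together (r = -0.01 across 12877 genes, which are not independent). With mouse number as a replicate block, 2 of the 10 genes were again called lower, and 1908 genes in all against 2090. The blocked log2 difference of each ratio, such as -0.34 for Mccc2 to Mccc1, is by construction that of the unblocked one. All 6 ratios kept their direction under their alternatives, in which Bcat1 to Bcat2 fell to 0.87 with FPKM + 1. Dbt was called only without Sox4-MKO mouse 2 and Bckdk only without Sox4-MKO mouse 1. Depth limits Bcat1 above all, with the fewest estimated fragments of the 10 genes.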
